A study of Mus musculus with 6 samples.

Results

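Polycomb complexes repress developmental genes by marking histones, and 34 of the 23253 genes listed in the deposited testis tables encode parts of these complexes or the enzymes that remove their marks. The 34 genes were taken by symbol from a list of Polycomb repressive complex 2 (PRC2), canonical and variant Polycomb repressive complex 1 (PRC1), histone H2A deubiquitinase and histone H3K27 demethylase genes, and no measured value entered that choice. They comprise 6 genes of the PRC2 core, 5 PRC2 accessory genes, 9 genes of canonical PRC1, 7 of variant PRC1, 5 of the H2A deubiquitinase group and 2 H3K27 demethylases, and all 34 were listed in all 6 libraries.

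The study sequenced oligo(dT)-selected RNA from testes of C57BL/6 mice aged 8 months, in 3 libraries labelled L3mbtl2 cKO (conditional knockout) and 3 libraries labelled control. L3MBTL2 is a histone-binding subunit of the variant complex PRC1.6. The sources used here do not give the Cre driver, the cell type deleted, the floxed exons or what the control mice carried. Nor do they say whether each library is a separate animal, and the p-values therefore reflect the spread among 6 libraries that may be technical in part.

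The targeted gene goes against the labels. L3mbtl2 (Entrez 214669, chromosome 15, 81663889 to 81688315 in GRCm38.p6) had 56.9, 60.9 and 57.2 CPM in the libraries labelled cKO, against 35.0, 38.8 and 36.1 CPM in the libraries labelled control. CPM (counts relative to library size) are scaled here by the trimmed mean of M-values (TMM). All 3 libraries labelled cKO were above all 3 labelled control, with a log2 fold change of 0.67 ± 0.10 (SE, cKO over control). The adjusted p was 0.166 with edgeR and 4.9e-04 with DESeq2, in a range of 3.2e-07 to 0.377 over the alternatives. File names assign the genotypes the other way round. Every direction given here follows the labels.

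The expected counts summed to between 18604191 and 18822050 in the libraries labelled cKO, and to between 17689205 and 18083291 in those labelled control. Libraries labelled cKO lay close together (Pearson's r of log2 CPM across genes 0.981 to 0.982), whereas among the control pairs replicates 2 and 3 stood furthest apart (r = 0.937). Control replicate 3 correlated with the libraries labelled cKO at 0.923 to 0.927. Control replicate 2 correlated with the libraries labelled cKO at 0.980 to 0.982, about as closely as these correlated with each other. Call counts are therefore also given without control replicate 2 or 3, and fold changes where leaving out either moves them by over 1.5 times or turns them. Summed FPKM of 18 Sertoli cell markers, which were listed in every library, was 1078, 1090 and 1039 in the libraries labelled cKO, against 1942, 1362 and 3425 in those labelled control. For 12 markers of Leydig cells, which make testosterone, it was 1507, 1661 and 1523 in the libraries labelled cKO, against 4282, 2121 and 10341 in those labelled control. The 10 macrophage markers summed to 59.2 to 70.5 FPKM in libraries labelled cKO and 63.7 to 284 in libraries labelled control. The 15 spermatogonial markers summed to 87.2 to 91.2 FPKM in libraries labelled cKO and 106 to 147 in libraries labelled control. Nanos2 was at 0 in some libraries. Peritubular myoid and stromal markers (10 genes) summed to 80.1 to 98.6 FPKM in libraries labelled cKO and 95.2 to 247 FPKM in libraries labelled control, and 8 endothelial markers to 11.9 to 16.6 FPKM in libraries labelled cKO and 15.4 to 28.6 in libraries labelled control. Control replicate 2 lay inside the range of the libraries labelled cKO for the macrophage, the peritubular myoid and stromal, and the endothelial sums. For 15 spermatocyte markers the sums also overlapped, at 3314 to 3436 FPKM in libraries labelled cKO and 2536 to 3394 in libraries labelled control. The 10 round spermatid markers summed to 1921 to 2003 FPKM in libraries labelled cKO and 1390 to 1819 in libraries labelled control. Among the latest cells, 10 elongating spermatid markers summed to between 28525 and 31130 FPKM in libraries labelled cKO and between 19769 and 27619 in libraries labelled control. In bulk tissue, fewer cells of a type and less RNA per cell cannot be told apart.

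PRC2 places methyl groups on lysine K27 of histone H3 through its catalytic subunit EZH1 or EZH2, and needs EED and SUZ12 for activity. PRC1 adds ubiquitin to histone H2A, and its forms differ in the PCGF protein they hold. Canonical PRC1 carries a CBX protein that reads the PRC2 mark and a PHC protein that compacts chromatin. Variant PRC1 recruits other partners, among them KDM2B, which binds unmethylated CpG islands. In the mouse testis, Polycomb proteins are needed to keep spermatogonia and to silence somatic genes in germ cells.

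Of the 33 genes that could be tested, 4 were lower in the libraries labelled cKO at an adjusted p under 0.05 in DESeq2, namely Rbbp7, Cbx6, Phc3 and Kdm6a, and none passed in edgeR. Their promoters are shown because PRC1.6, the complex that holds L3MBTL2, reaches DNA through the E2F6 and MGA proteins, which recognise E2F and E-box sequences. Each window holds the 250 bases before a transcription start in the RefSeq GRCm38.p6 promoter table and the first 50 bases from it on, 5′ to 3′ on the gene's strand. Capitals mark the E-box (letters CACGTG) and the E2F motif (letters GGCGGGA), searched on both strands. They do not overlap in these windows. In order, the windows lie at chrX:162760122-162760421 (plus strand), chr15:79834284-79834583 (minus strand), chr3:30969366-30969665 (minus strand) and chrX:18162325-18162624 (plus strand).
Rbbp7: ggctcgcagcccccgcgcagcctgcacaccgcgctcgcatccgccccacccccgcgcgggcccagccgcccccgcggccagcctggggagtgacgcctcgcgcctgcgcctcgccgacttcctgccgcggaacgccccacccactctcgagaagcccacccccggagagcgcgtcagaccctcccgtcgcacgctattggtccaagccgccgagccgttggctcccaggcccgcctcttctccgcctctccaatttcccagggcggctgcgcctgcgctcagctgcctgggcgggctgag
Cbx6: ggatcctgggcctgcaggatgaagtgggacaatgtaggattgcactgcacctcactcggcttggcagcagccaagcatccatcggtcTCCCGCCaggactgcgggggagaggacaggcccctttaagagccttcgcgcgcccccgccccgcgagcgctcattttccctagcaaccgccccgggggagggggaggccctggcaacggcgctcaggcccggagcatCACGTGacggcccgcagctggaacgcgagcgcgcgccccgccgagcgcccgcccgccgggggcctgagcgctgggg
Phc3: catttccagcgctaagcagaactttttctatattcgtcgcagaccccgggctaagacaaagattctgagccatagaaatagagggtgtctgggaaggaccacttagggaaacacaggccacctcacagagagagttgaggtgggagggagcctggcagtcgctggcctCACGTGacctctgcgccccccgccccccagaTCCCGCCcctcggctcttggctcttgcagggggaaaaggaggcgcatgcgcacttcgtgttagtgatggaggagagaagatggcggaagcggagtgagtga
Kdm6a: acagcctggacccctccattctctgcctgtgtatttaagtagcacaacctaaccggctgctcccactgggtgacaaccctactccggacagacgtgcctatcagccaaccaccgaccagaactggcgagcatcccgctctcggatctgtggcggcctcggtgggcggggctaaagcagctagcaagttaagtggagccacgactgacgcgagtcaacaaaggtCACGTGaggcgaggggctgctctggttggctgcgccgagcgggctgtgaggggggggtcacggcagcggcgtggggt

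The first base of the E-box lies at -26 in Cbx6, -82 in Phc3 and -27 in Kdm6a, counted from the start in its own window, and these letters are not in the window of Rbbp7. That start lies inside the gene's outer bounds for Phc3 and Kdm6a, whose coordinates are given below from the RefSeq gene table. An E2F motif lies at -163 in Cbx6 and -51 in Phc3. Windows were found for 29 of the 34 genes, with 41 windows in all. An E-box was present in 12 of the 41 windows (29.3%), against 7.15% of all 32851 promoter windows. The E2F motif was present in 10 of the 41 (24.4%), against 11.3% of all windows. Both motifs were present in the windows of 5 genes, Bcorl1, Cbx6, Cbx8, Pcgf2 and Phc3. Median GC content was 64.3% in the 41 windows and 52.7% in all windows, and its part in the motif shares was not tested. A match is a description of the letters and not of binding.

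The 34 genes covered a wide range of transcript levels, compared here in FPKM, which divides fragments by transcript length and library depth. Averaged over all 6 libraries, 18 genes had at least 10 FPKM, 13 had 1 to under 10 FPKM and 3 had less than 1 FPKM. The highest level was that of Phc1, a polyhomeotic subunit of canonical PRC1, at 91.0 ± 3.8 FPKM in libraries labelled cKO and 80.1 ± 12.9 FPKM in libraries labelled control (SD, n = 3 each). Phf1, a Polycomb-like protein that anchors PRC2 on CpG islands, averaged 55.1 FPKM over the 6 libraries, Usp16, an H2A deubiquitinase, 53.5 FPKM and Bmi1 (also called Pcgf4) 45.9 FPKM. These 3 neighbours in the order overlapped in their library values. At the low end, Bcor averaged 0.672 FPKM, Asxl3 0.207 FPKM and Phf19, the third Polycomb-like gene, 0.0933 FPKM.

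**Figure D1:**
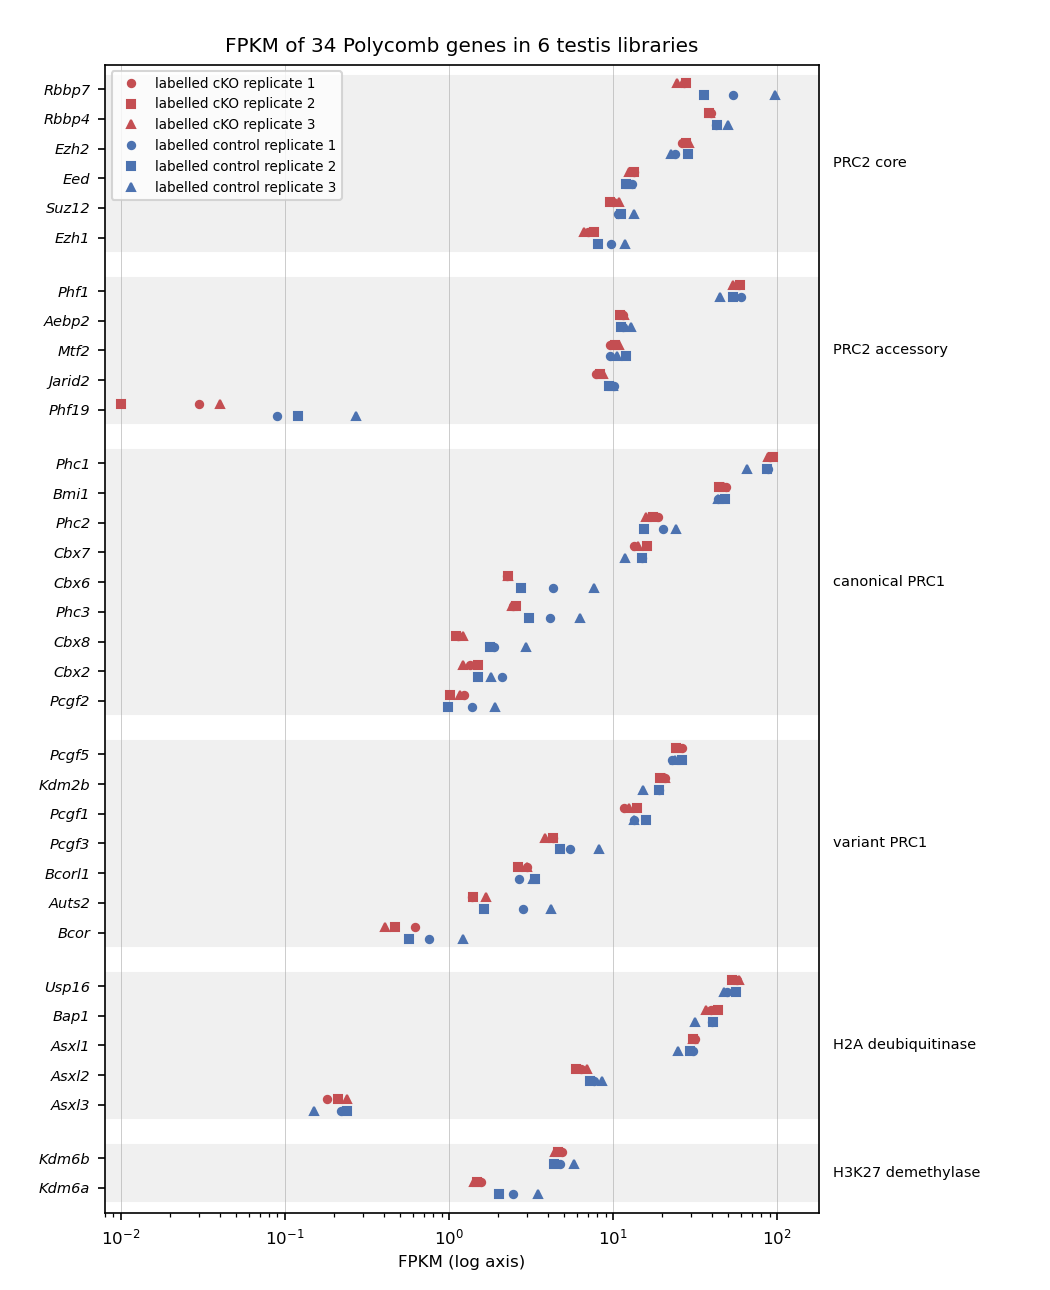
FPKM of the 34 Polycomb genes on a log axis, grouped by role, with the 3 libraries labelled cKO (red) above the 3 labelled control (blue) for each gene. Levels run from 0.01 FPKM for Phf19 to 97.6 FPKM for Rbbp7, and control replicate 3 is the highest library for Rbbp7, Cbx6, Phc3, Auts2 and Kdm6a.

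Across all genes edgeR's quasi-likelihood test called 0% higher and 0% lower at an adjusted p under 0.05, and it called 0 of the 33 Polycomb genes tested. At an unadjusted p under 0.05, 1 gene was higher in the libraries labelled cKO (Kdm2b) and 7 were lower (Ezh1, Rbbp7, Cbx6, Cbx8, Phc3, Auts2 and Kdm6a), that is 3.03% and 21.2% of the 33 genes, beside 8.85% and 18.8% of all genes tested. DESeq2 called 4 of the 33 lower (12.1%) and 0 higher, where it called 7.66% of all genes lower and 0.405% higher. Limma on log2(FPKM + 1) called 0 of 31, beside 0.0065% of all genes higher and 0% lower. Log2 fold changes in edgeR were positive for 12 genes and negative for 21, with a median of -0.10, beside -0.005 for all 18269 genes tested.

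Library values did not overlap between the labels for 13 of the 33 genes (39.4%), beside 37.9% of all genes. Of these, 4 were higher in libraries labelled cKO (Eed, Phc1, Kdm2b and Asxl1, 12.1% beside 18% of all genes) and 9 were lower (Ezh1, Rbbp7, Jarid2, Cbx6, Cbx8, Phc3, Pcgf3, Asxl2 and Kdm6a, 27.3% beside 19.8%). The share for either direction together lay near that of all genes. Scaling by library totals alone moved the median log2 fold change of all genes to -0.10. It gave 2 Polycomb genes higher and 12 lower without overlap, beside 9.49% and 26.9% of all genes.

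The outcome turned on replicates 2 and 3 labelled control. Without control replicate 2, edgeR called 9 of the 33 genes, with Ezh2 and Usp16 higher in the libraries labelled cKO and Ezh1, Rbbp7, Cbx6, Phc3, Pcgf3, Auts2 and Kdm6a lower. In that comparison it called 11% of all genes higher and 20.7% lower, so that the 2 higher and 7 lower genes make 6.06% and 21.2% of the list. DESeq2 without control replicate 2 called the same 7 lower and 4 higher (Ezh2, Usp16, Phc1 and Kdm2b), beside 20.5% and 15.6% of all genes. Without control replicate 3, edgeR called none of the 33, beside 0.0108% of all genes higher and 0% lower, and DESeq2 called Rbbp7 lower out of the 30 genes that kept an adjusted p, beside 4.01% of all genes lower and 1.8% higher.

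**Figure D2:**
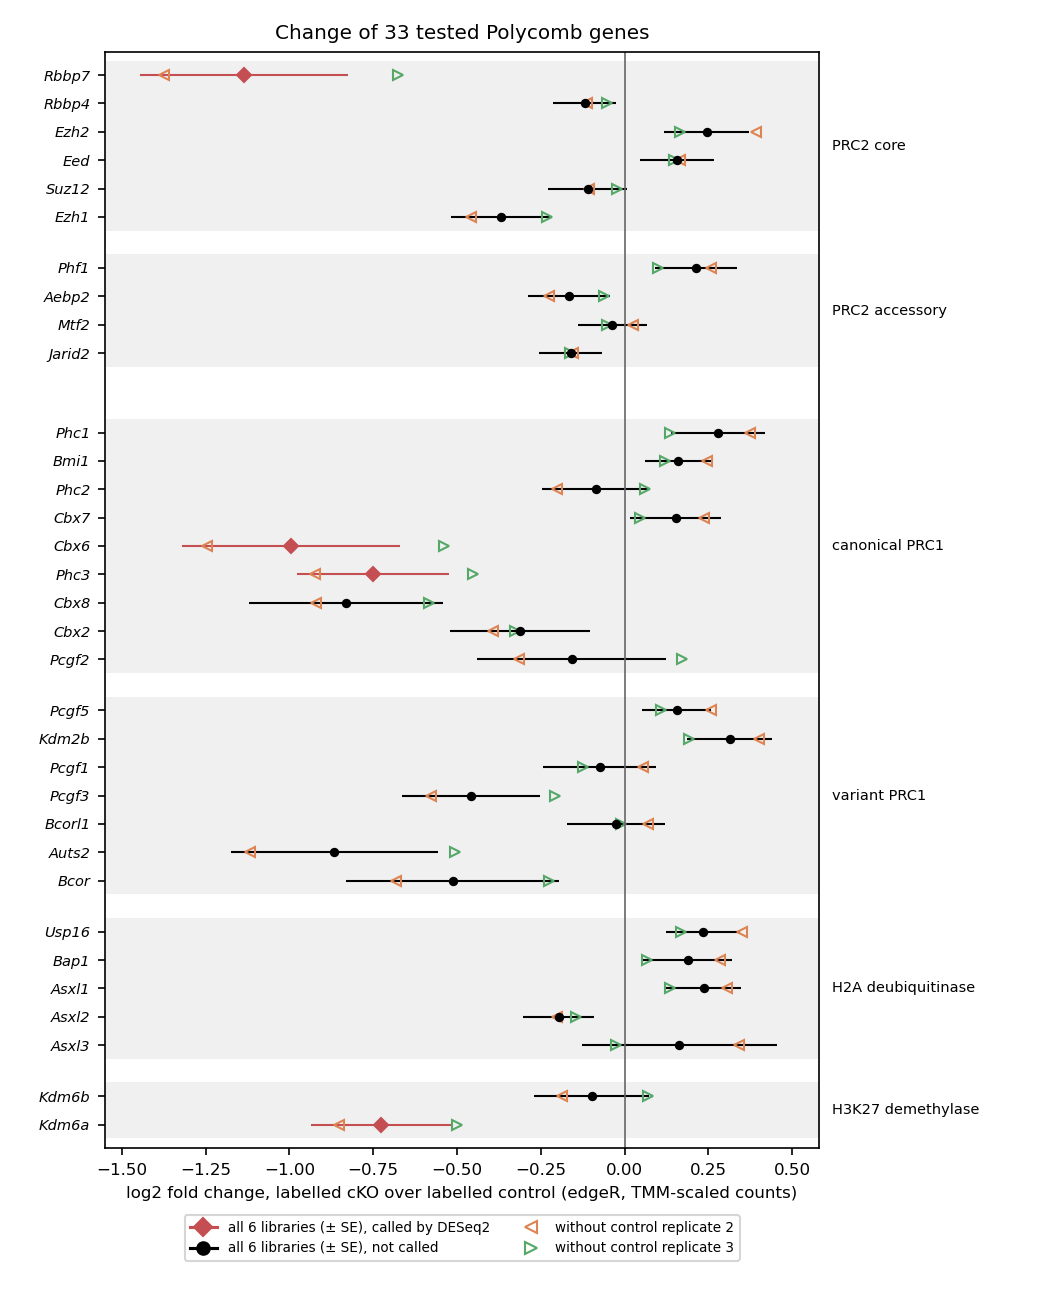
Log2 fold change (labelled cKO over labelled control, edgeR on TMM-scaled counts) of the 33 genes tested, with bars of 1 SE, and open triangles for the same fit without control replicate 2 or 3. The 4 genes called by DESeq2 (red) lie between -1.14 and -0.73, and for all 4 the value without control replicate 3 lies nearer to 0.

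Among the 6 core subunits of PRC2, DESeq2 called Rbbp7 lower under the label cKO, and Ezh1 and Ezh2 had fold changes of opposite sign that did not pass the test. RBBP7 and RBBP4 are histone-binding proteins that several chromatin complexes share. Rbbp7 (Entrez 245688, chromosome X, 162760372 to 162779090) had 62.4, 63.6 and 56.5 CPM in libraries labelled cKO, against 114, 79.9 and 206 CPM in libraries labelled control. All 3 libraries labelled cKO were below the lowest control, and control replicate 3 was the highest. The log2 fold change was -1.14 ± 0.31 (SE), a level 0.455 times that of the control label. The adjusted p was 0.166 with edgeR and 0.013 with DESeq2, in a range of 9.8e-08 to 0.377 over the alternatives. Without control replicate 3 the log2 fold change was -0.68, and without control replicate 2 it was -1.38. Rbbp4 had 181, 173 and 175 CPM in libraries labelled cKO, against 177, 188 and 208 CPM in libraries labelled control, and the groups overlapped (log2 fold change -0.12 ± 0.09, SE, and -0.05 without control replicate 3).

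Ezh1, the EZH form found mainly in non-dividing cells, had 30.5, 33.2 and 28.9 CPM in libraries labelled cKO, against 38.7, 33.7 and 47.2 CPM in libraries labelled control. The groups did not overlap, although cKO replicate 2 and control replicate 2 were within 1 CPM of each other. Its log2 fold change was -0.37 ± 0.15 (SE), with an adjusted p of 0.173 in edgeR, and was -0.23 without control replicate 3. Ezh2, the form of dividing cells, had 68.6, 72.7 and 74.9 CPM in libraries labelled cKO, against 57.4, 71.3 and 53.8 CPM in libraries labelled control. Its log2 fold change was 0.25 ± 0.13 (SE), and control replicate 2 lay inside the range of the libraries labelled cKO. It was 0.39 without that library and 0.16 without control replicate 3. Summed over both genes, FPKM was nearly equal, at 34.9 ± 1.4 in libraries labelled cKO and 34.9 ± 1.6 in libraries labelled control (SD, n = 3 each). Eed, which binds the methylated histone tail, had 28.0, 27.8 and 25.9 CPM in libraries labelled cKO, against 25.0, 24.2 and 24.1 CPM in libraries labelled control, with no overlap and a log2 fold change of 0.16 ± 0.11 (SE). In FPKM the groups did overlap for Eed, at 12.5 to 13.4 in libraries labelled cKO and 12.0 to 13.0 in libraries labelled control. Suz12, the scaffold of the complex, had a log2 fold change of -0.11 ± 0.12 (SE), and of -0.02 without control replicate 3.

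Of the 5 PRC2 accessory genes 4 were tested, and the smallest adjusted p among them was 0.266 in edgeR. Phf1 had 145, 147 and 134 CPM in libraries labelled cKO, against 137, 128 and 103 CPM in libraries labelled control (log2 fold change 0.21 ± 0.12, SE). Aebp2, a DNA-binding partner of PRC2, had 38.9, 39.7 and 40.9 CPM in libraries labelled cKO, against 43.4, 39.6 and 51.0 CPM in libraries labelled control (-0.16 ± 0.12). Control replicate 2 lay inside the cKO range for Aebp2. With control replicate 3 left out, the log2 fold changes were 0.10 for Phf1 and -0.06 for Aebp2. Jarid2, which joins the same PRC2 form, had 47.4, 49.6 and 51.9 CPM in libraries labelled cKO, against 56.2, 54.9 and 55.4 CPM in libraries labelled control. Its groups did not overlap, and the log2 fold change of -0.16 ± 0.09 (SE) varied little with the controls left out, between -0.15 and -0.16. Mtf2 had a log2 fold change of -0.04, which turned positive without cKO replicate 2 (0.006) or without control replicate 2 (0.03). Phf19 was close to the listing limit, with expected counts of 2, 1 and 3 in libraries labelled cKO and 6, 8 and 18 in libraries labelled control, and did not pass the filter on low counts.

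In canonical PRC1, DESeq2 called Cbx6 and Phc3 lower under the label cKO, and the other 7 genes did not pass. Cbx6, a chromodomain subunit (Entrez 494448, chromosome 15, 79823898 to 79834333), had 12.7, 12.9 and 12.8 CPM in libraries labelled cKO, against 22.4, 14.7 and 39.3 CPM in libraries labelled control. Libraries labelled cKO were almost equal and all lay below the controls, which themselves spanned a wide range. The log2 fold change was -0.99 ± 0.33 (SE), and the adjusted p was 0.166 with edgeR and 0.038 with DESeq2, in a range of 2.3e-05 to 0.377 over the alternatives. Without control replicate 3 the log2 fold change was -0.54. Phc3, the least abundant polyhomeotic gene (Entrez 241915, chromosome 3, 30899295 to 30969479), had 28.0, 29.2 and 27.7 CPM in libraries labelled cKO, against 43.5, 33.9 and 65.4 CPM in libraries labelled control. Its log2 fold change was -0.75 ± 0.23 (SE), and its adjusted p was 0.166 with edgeR and 0.037 with DESeq2 (5.7e-05 to 0.377 over the alternatives). It was -0.45 without control replicate 3.

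Cbx8, a further chromodomain gene at low level, had 1.60, 1.54 and 1.72 CPM in libraries labelled cKO, against 2.45, 2.42 and 3.80 CPM in libraries labelled control. The groups did not overlap, and the log2 fold change was -0.83 ± 0.29 (SE), with an adjusted p of 0.166 in edgeR and 0.158 in DESeq2 (0.055 to 0.377 over the alternatives). Phc1 had 361, 374 and 346 CPM in libraries labelled cKO, against 325, 330 and 236 CPM in libraries labelled control, with no overlap and a log2 fold change of 0.28 ± 0.14 (SE). That value was 0.14 without control replicate 3, and in FPKM the libraries did overlap for Phc1. Bmi1, the PCGF subunit needed for the upkeep of many stem cells, had 182, 163 and 174 CPM in libraries labelled cKO, against 148, 169 and 146 CPM in libraries labelled control (0.16 ± 0.10). Control replicate 2 was inside the cKO range for Bmi1, whose log2 fold change was 0.25 without it. The log2 fold changes of the other 4 genes were 0.15 for Cbx7, -0.31 for Cbx2, -0.09 for Phc2 and -0.16 for Pcgf2, and the last 2 turned positive without control replicate 3 (0.06 and 0.17). Cbx7 was at 0.05 without control replicate 3 and 0.24 without control replicate 2, and leaving out replicate 2 gave -0.20 for Phc2 and -0.31 for Pcgf2.

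In variant PRC1, Kdm2b was the gene with the smallest unadjusted p among those higher in the libraries labelled cKO. It had 98.6, 91.3 and 94.1 CPM in libraries labelled cKO, against 81.8, 83.8 and 62.9 CPM in libraries labelled control. The groups did not overlap, the log2 fold change was 0.31 ± 0.13 (SE) and the adjusted p was 0.174 in edgeR. The value was 0.19 without control replicate 3. Pcgf5 had 76.9, 75.0 and 74.4 CPM in libraries labelled cKO, against 64.3, 75.5 and 63.5 CPM in libraries labelled control (0.16 ± 0.10, and 0.26 without control replicate 2). Its close relative Pcgf3, which can also define a complex of its own, had 16.5, 16.5 and 14.8 CPM in libraries labelled cKO, against 19.4, 17.4 and 28.9 CPM in libraries labelled control. Its log2 fold change was -0.46 ± 0.21 (SE), with no overlap, and -0.21 without control replicate 3. Auts2, a partner found with PCGF3 and PCGF5, had 8.96, 9.31 and 10.8 CPM in libraries labelled cKO, against 17.2, 10.2 and 25.4 CPM in libraries labelled control. Control replicate 2 lay within the cKO range, and the log2 fold change was -0.87 ± 0.31 (SE) over all 6 libraries and -0.51 without control replicate 3. The partners of PCGF1 had log2 fold changes of -0.51 (Bcor) and -0.03 (Bcorl1), and Pcgf1 itself -0.07. The value for Bcorl1 turned positive without cKO replicate 2 (0.04) or control replicate 2 (0.07), and that for Pcgf1 without control replicate 2 (0.05). Bcor was at -0.23, Bcorl1 at -0.01 and Pcgf1 at -0.12 without control replicate 3.

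Genes for removal of the H2A mark had positive log2 fold changes in 4 of 5 cases, beside 49.5% of all genes tested. Of all genes with at least 10 FPKM, the level of Usp16, Bap1 and Asxl1, 68.2% were positive. The median of the 5 genes was 0.19, and none passed the test in edgeR or DESeq2. Their median was 0.07, with 3 of 5 positive, without control replicate 3, and 0.30 without control replicate 2, where edgeR called Usp16. Usp16 had 170, 158 and 174 CPM in libraries labelled cKO, against 136, 161 and 129 CPM in libraries labelled control (0.23 ± 0.11). Bap1, the catalytic subunit of the Polycomb deubiquitinase, had 138, 151 and 129 CPM in libraries labelled cKO, against 130, 136 and 101 CPM in libraries labelled control (0.19 ± 0.13). Groups overlapped for both genes, and Bap1 was at 0.07 without control replicate 3 and 0.29 without control replicate 2. Asxl1, which activates BAP1, had 224, 215 and 216 CPM in libraries labelled cKO, against 198, 200 and 159 CPM in libraries labelled control, with no overlap (0.24 ± 0.11, and 0.14 without control replicate 3). Asxl2 had 61.2, 56.1 and 66.3 CPM in libraries labelled cKO, against 67.4, 67.8 and 75.1 CPM in libraries labelled control, with no overlap in the opposite direction (-0.20 ± 0.11). Asxl3 had a log2 fold change of 0.16, of -0.03 without control replicate 3 and of 0.34 without control replicate 2.

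Kdm6a was the H3K27 demethylase with a call. It is X-linked (Entrez 22289, 18160862 to 18279936) and had 9.57, 9.03 and 8.66 CPM in libraries labelled cKO, against 13.9, 11.8 and 19.4 CPM in libraries labelled control. All 3 libraries labelled cKO were below all controls. The log2 fold change was -0.73 ± 0.21 (SE), with an adjusted p of 0.166 in edgeR and 0.046 in DESeq2 (0.0021 to 0.377 over the alternatives), and it was -0.50 without control replicate 3. Kdm6b had 17.4, 16.5 and 15.4 CPM in libraries labelled cKO, against 16.5, 14.9 and 21.4 CPM in libraries labelled control, and the groups overlapped. Its log2 fold change of -0.10 ± 0.17 (SE) became 0.07 without control replicate 3 and -0.19 without control replicate 2.

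In all 4 genes called in DESeq2, control replicate 3 was highest, replicate 1 next and replicate 2 lowest. The Sertoli and Leydig marker sums had this order, as did the spermatogonial sums (121, 106 and 147 FPKM in control replicates 1, 2 and 3). So did the macrophage (143, 63.7 and 284 FPKM), peritubular myoid and stromal (164, 95.2 and 247) and endothelial sums (20.9, 15.4 and 28.6). The spermatocyte, round spermatid and elongating spermatid sums had the reverse order. These 4 genes were picked for being lower under the label cKO. The share with replicate 3 highest, 1 next and 2 lowest among all genes called lower was not computed. That order was present in 13 of the 33 Polycomb genes (39.4%) and in 34.7% of all genes tested. All 18 Sertoli markers and all 11 Leydig markers tested had negative log2 fold changes, with medians of -0.91 and -1.58. Of the spermatogonial markers tested, 11 of 14 were negative, with a median of -0.44. All 10 macrophage, all 10 peritubular myoid and stromal and 7 of 8 endothelial markers were negative. All 10 round spermatid markers were positive, with a median of 0.36, as were all 10 elongating spermatid and 13 of 15 spermatocyte markers. Leaving out control replicate 3 gave medians of -0.55, -0.97 and 0.25 for the Sertoli, Leydig and round spermatid markers. The part of these cell types in the Polycomb values was not tested.

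**Figure D3:**
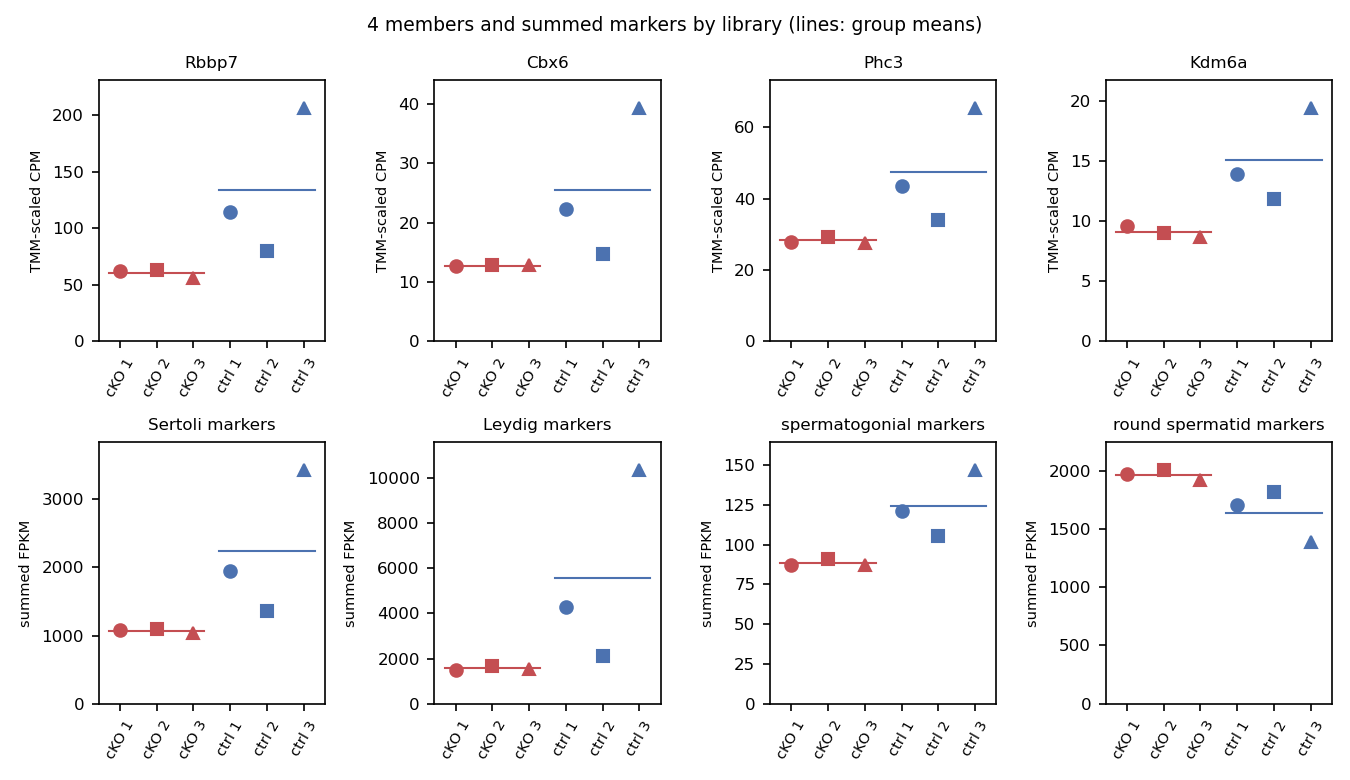
Upper panels, TMM-scaled CPM of Rbbp7, Cbx6, Phc3 and Kdm6a in each library; lower panels, summed FPKM of Sertoli, Leydig, spermatogonial and round spermatid markers. Libraries labelled cKO are red, libraries labelled control blue and lines are group means; control replicate 3 is highest for the 4 genes and the first 3 marker sums and lowest for round spermatid markers.

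The genes were also grouped by mean FPKM, a split chosen after the values were seen. By that grouping, 11 of the 18 genes with at least 10 FPKM had a positive log2 fold change (61.1%), beside 68.2% of all genes at that level. Of the 13 genes with 1 to under 10 FPKM none was positive, beside 38.8% of all genes at that level. Their median was -0.37, and that of all genes in the same range was -0.15. The shared direction did not hold with a library left out. Without control replicate 3, the log2 fold changes of Pcgf2 (0.17) and Kdm6b (0.07) turned positive, and that of Bcorl1 (0.07) did so without control replicate 2.

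Chromosome X carries 4 of the 34 genes, Rbbp7, Kdm6a, Bcor and Bcorl1. All 4 had a negative log2 fold change, beside 69.1% of all 728 X-linked genes tested. Bcorl1 was at -0.03 and turned positive without control replicate 2 (0.07). The median of the 4 genes was -0.62, beside a median of -0.45 over all 728 X-linked genes. Leaving out control replicate 3 gave medians of -0.36 for the 4 genes and -0.28 for all X-linked genes. Of those 728, 38.2% were lower without overlap in the libraries labelled cKO, and DESeq2 called 20.1% of 702 lower. Of the 29 autosomal Polycomb genes tested, 17 were negative (58.6%, beside 50.5% of all genes tested), with a median of -0.09.

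Within a library, the ratio of 2 genes with the same role does not depend on how the library was scaled. For 9 of 15 such pairs the log2 ratio of FPKM did not overlap between the labels. Single genes did not overlap in 37.9% of cases, but that share is not a baseline for ratios. No share over all possible gene pairs was computed, and Cbx6, Phc1 and Phf1 recur among the pairs, so no excess can be read from the count. With 3 libraries against 3, the exact two-sided permutation test cannot give a p below 0.1, which these 9 pairs reached (0.167 after Benjamini-Hochberg adjustment over the 15 pairs). The log2 ratio of Ezh2 to Ezh1 was 1.96 ± 0.13 in libraries labelled cKO and 1.35 ± 0.45 in libraries labelled control (SD, n = 3 each). That of Rbbp7 to Rbbp4 was -0.56 ± 0.09 in libraries labelled cKO and 0.35 ± 0.61 in libraries labelled control, so that Rbbp4 was the more abundant of the 2 in all libraries labelled cKO, and Rbbp7 in control replicates 1 and 3.

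The ratio of Cbx7 to Cbx6 was higher in the libraries labelled cKO by 1.05 on the log2 scale, and that of Phc3 to Phc1 was lower, with a difference of -0.99. Kdm6b to Kdm6a gave the smallest SD in libraries labelled cKO, at 1.65, 1.63 and 1.63 in libraries labelled cKO, against 0.95, 1.10 and 0.73 in libraries labelled control. Pcgf5 to Pcgf3 (0.58), Aebp2 to Jarid2 (0.20) and Asxl2 to Asxl1 (-0.43) also did not overlap, nor did Phf19 to Phf1, which rests on FPKM of 0.01 to 0.27 for Phf19. Libraries overlapped for the 6 remaining pairs, among them Bmi1 to Pcgf2 (0.34), Bcorl1 to Bcor (0.60) and Cbx8 to Cbx6 (0.08), with exact p between 0.2 and 0.8. With control replicate 2 left out, 14 of the 15 pairs did not overlap. For single genes the share without overlap was then 64.9%, which is again no baseline for ratios. With control replicate 3 left out, the differences were 0.40 for Ezh2 to Ezh1, -0.60 for Rbbp7 to Rbbp4, 0.55 for Cbx7 to Cbx6, -0.58 for Phc3 to Phc1, 0.33 for Pcgf5 to Pcgf3 and -0.27 for Asxl2 to Asxl1.

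**Figure D4:**
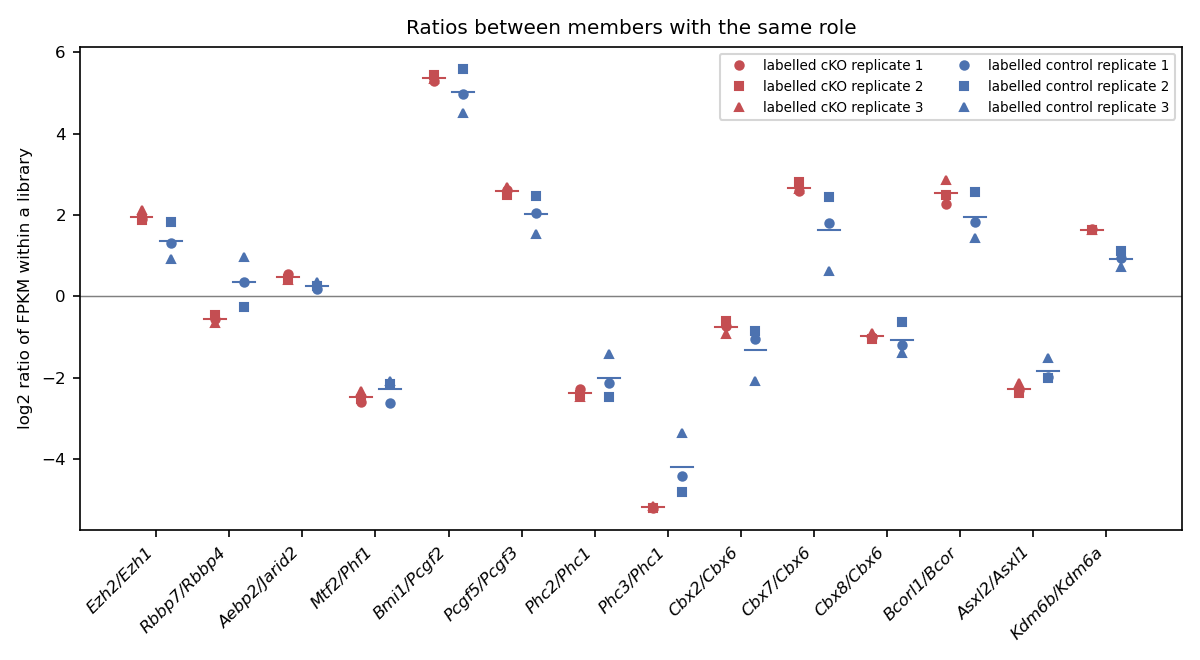
Log2 ratio of FPKM within each library for 14 pairs of genes with the same role; short lines are group means and the pair Phf19/Phf1 is off the scale. Libraries labelled cKO (red) lie left of libraries labelled control (blue) and have the smaller SD in each of the 14 pairs, for example 1.96 ± 0.13 and 1.35 ± 0.45 for Ezh2/Ezh1.

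As shares of their family, Ezh2 made 79.0%, 78.5% and 81.2% of the summed EZH FPKM in libraries labelled cKO, against 71.2%, 77.9% and 65.5% in libraries labelled control. Rbbp7 made 40.4 ± 1.6% of the RBBP4 and RBBP7 sum in libraries labelled cKO and 55.8 ± 10.3% in libraries labelled control (SD, n = 3 each). Cbx7 was the main gene among the 4 CBX genes analysed, with 74.0%, 76.6% and 75.1% in libraries labelled cKO, against 64.4%, 71.3% and 48.8% in libraries labelled control. Phc1 made 82.1 ± 0.9% of the polyhomeotic sum in libraries labelled cKO and 76.4 ± 7.3% in libraries labelled control. Bmi1 held 52.1 ± 1.4% of the sum of 5 PCGF genes in libraries labelled cKO and 49.3 ± 1.4% in libraries labelled control, with the libraries close together. Kdm6a made 24.1%, 24.4% and 24.4% of the KDM6 sum in libraries labelled cKO, against 34.1%, 31.8% and 37.6% in libraries labelled control, and these shares did not overlap.

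The deposited length of a gene is an average over its transcripts weighted by their estimated abundance, so it moves with the transcript mix. It varied between libraries for 20 of the 34 genes, and the other 14 have 1 transcript in the tables. Limma on log2 length called 0% of 8217 genes and none of the 19 Polycomb genes tested. Lengths did not overlap for 8.26% of all genes in the shorter direction and 6.62% in the longer direction, and for 1 of the 19, Aebp2. Its length was 3292, 3512 and 3461 bases in libraries labelled cKO, against 3979, 3584 and 4236 bases in libraries labelled control. The log2 difference was -0.20 ± 0.07 (SE), with an unadjusted p of 0.040 and an adjusted p of 0.608 in limma. For L3mbtl2 itself the length was 3493 ± 4.8 bases in libraries labelled cKO and 2717 ± 106 bases in libraries labelled control (SD, n = 3 each; adjusted p 0.217 in limma).

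Among 24 further Polycomb genes, which include the catalytic RING genes and other partners, edgeR called 0. At an unadjusted p under 0.05, 2 were higher (8.33%) and 7 lower (29.2%), beside 8.85% and 18.8% of all genes. DESeq2 called 4 lower (16.7%), beside 7.66% of all genes. Without control replicate 2 edgeR called 1 higher (Csnk2b) and 7 lower, beside 11% and 20.7% of all genes. Ogt, Hcfc1 and Fbrsl1 were among them, named after their values were seen. Ogt, an X-linked enzyme that adds sugar to nuclear proteins, had 36.8, 44.1 and 40.9 CPM in libraries labelled cKO, against 75.7, 53.4 and 114 CPM in libraries labelled control. Its libraries did not overlap between the labels. The adjusted p in DESeq2 was 0.013 for Ogt (6.5e-08 to 0.377 over the alternatives), and its control libraries had the same order as those of Rbbp7. The median log2 fold change of the 24 genes was -0.13, with 9 positive and 15 negative, and 11 did not overlap (45.8%, beside 37.9% of all genes).

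The 5 most abundant of these were Csnk2b, Skp1a, Usp7, Scmh1 and Fbrs. Csnk2b, the regulatory subunit of casein kinase CK2, had 684, 676 and 647 CPM in libraries labelled cKO, against 535, 600 and 455 CPM in libraries labelled control (log2 fold change 0.34 ± 0.12, SE). Scmh1, a PRC1-associated gene, had a log2 fold change of 0.28 (0.17 without control replicate 3) and Usp7, a deubiquitinase bound to variant PRC1, 0.16 (0.24 without control replicate 2). Skp1a and Fbrs were at 0.08 and 0.05, and both turned negative under scaling by library totals (-0.02 and -0.05) and on log2(FPKM + 1) (-0.08 and -0.02).

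Hox genes are textbook targets of Polycomb repression. Of 39 Hox genes in the list 38 were listed, 17 passed the filter and 8 had a mean of at least 1 FPKM. None was called by edgeR or DESeq2, with 1 higher (5.88%) and 3 lower (17.6%) at an unadjusted p under 0.05 in edgeR, beside 8.85% and 18.8% of all genes, and the median log2 fold change was -0.23. Hoxa4 and Hoxd8 were the most abundant. Hoxa4 had 42.6, 43.1 and 45.6 CPM in libraries labelled cKO, against 39.0, 41.2 and 31.1 CPM in libraries labelled control (0.24 ± 0.13, and 0.12 without control replicate 3). Hoxd8 had 49.9, 46.6 and 44.7 CPM in libraries labelled cKO, against 49.5, 44.8 and 47.4 CPM in libraries labelled control, and its log2 fold change of -0.006 changed sign between scalings (0.007 with DESeq2 size factors in edgeR). Hoxb3 had a log2 fold change of 0.31 ± 0.25, Hoxd9 of -1.22 ± 0.64 and Hoxd10 of -0.76 ± 0.51 (SE). They were 0.08, -0.50 and -0.44 without control replicate 3. Hoxb3 was at 0.47 and Hoxd8 at -0.03 without control replicate 2. Without control replicate 2, edgeR called 5 of 18 Hox genes lower (27.8%, beside 20.7% of all genes), among them Hoxd9 at -1.63.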

How the data were processed

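Messenger RNA of testes was measured in 6 libraries, 3 labelled L3mbtl2 cKO and 3 labelled control, grouped by the genotype label. Per the file headers, the deposited tables give for each gene a length, an expected count and an FPKM. The submitters' processing notes name bcl2fastq 2.16, HISAT2 2.0.4, Bowtie2 2.2.5, RSEM, DESeq2 and mm10, with no role or order. Expected counts, deposited by the authors without normalization, were not whole for 24.1 to 25.4% of the listed genes and were rounded here. The authors' FPKM are scaled by length and sequencing depth. Genes absent from a library's table were given 0. The library strandedness was not given in the sources, and antisense genes that overlap cannot be told apart. RBBP4 with RBBP7, and other paralogs, can share reads that RSEM divides by estimate.

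The test was the quasi-likelihood F-test of edgeR 4.0.16 in R 4.3.3, with TMM scaling and filterByExpr (minimum count 10, minimum total 15), which kept 18269 genes, and Benjamini-Hochberg adjustment over all of them at 0.05. The common coefficient of biological variation was 22.8%. The script was tested on simulated data. Genes to which DESeq2 1.42.0 gave no adjusted p were left out of its counts. Limma 3.58.1 was used on log2(FPKM + pseudocount), where 3 or more libraries reached 1 FPKM, and on log2 length. Motifs were searched in promoter windows of RefSeq GRCm38.p6, whose gene table gave coordinates. Alternatives were other scalings, tools, filters and pseudocounts, the replicate number as a block, and leaving out each library. DESeq2 without control replicate 2 or 3 was added after seeing the data.

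The Polycomb genes, the other lists and the tests were chosen with earlier results of these data known. By rule, the text names all 34 genes, L3mbtl2 and the 5 most abundant genes of each further list. Among the 34 genes, values per library are given for those called in edgeR or DESeq2, those without overlap and the 2 most abundant of each role. They are also given for Ezh2 and Auts2, which fall outside that rule. A result for 1 further gene is not reported here.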

Additional observations from a re-analysis of the deposited data

How the results depend on the processing

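Over all genes, edgeR made 0 calls, DESeq2 1435, and limma 1 with either pseudocount. Leaving out a library gave 0 to 5900 calls in edgeR (5900 without control replicate 2, 3 without cKO replicate 2), and DESeq2 gave 6718 without control replicate 2 and 766 without control replicate 3. For the Polycomb genes the count was 0 in edgeR, 4 in DESeq2, 0 to 9 over the libraries left out, 11 in DESeq2 without control replicate 2 and 1 without control replicate 3. Polycomb genes without overlap numbered 13 (39.4%, beside 37.9% of all genes), and 13 to 21 with a library left out. The 21 without control replicate 2 made 63.6%, beside 64.9% of all genes in that setting. For the 24 further Polycomb genes DESeq2 called 4, and edgeR 0 to 8 with a library left out, and for the Hox genes 0 to 5. The median log2 fold change of the Polycomb genes was -0.098, which became -0.20 with library totals, -0.16 on log2(FPKM + 1) and -0.17 on log2(FPKM + 0.1), and ranged from -0.14 to -0.025 over the libraries left out. Library totals moved the median of all genes to -0.10. Ratios without overlap numbered 9, and 9 to 14 with a library left out. The length test called 0 throughout. The cause of these shifts was not tested.

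Of 455 combinations of gene and alternative, 446 kept the direction, and 26 of the 33 genes kept it in every alternative run. With a library left out, directions turned for Mtf2 (-0.089 to 0.026), Bcorl1 (-0.12 to 0.071), Pcgf1 (-0.15 to 0.054), Pcgf2 (-0.31 to 0.17), Phc2 (-0.20 to 0.061), Asxl3 (-0.025 to 0.34), Kdm6b (-0.19 to 0.068) and the ratio of Cbx8 to Cbx6 (-0.077 to 0.30). Control replicate 3 was the library left out for Pcgf2, Phc2, Asxl3, Kdm6b and that ratio, control replicate 2 for Pcgf1, and cKO replicate 2 or control replicate 2 for Mtf2 and Bcorl1. Outside the list they turned for Skp1a (-0.022 with library totals, -0.084 on both FPKM scales), Fbrs (-0.050 with library totals, -0.023 and -0.024 on FPKM, -0.051 without control replicate 3) and Hoxd8 (0.0074 with DESeq2 size factors, 0.015 in DESeq2, 0.0021 with no filter, -0.047 to 0.034 with a library left out).

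Same-numbered libraries deviated together with r of 0.043, -0.0067 and -0.039, against -0.066 to 0.074 for differently numbered ones. These values show no sign of pairing by number, but with 3 libraries per group they cannot show that it is absent. With the replicate number as a block, 0 Polycomb genes were called, the median was -0.082, and 13 did not overlap. Subtracting same-numbered libraries, 10 ratios differed in the same direction in all 3 such subtractions. Every ratio without overlap between the labels must do so under any numbering, so this count is no separate result.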
